A study of Mus musculus with 8 samples.

Results

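TFIID is the general transcription factor that recognises core promoters for RNA polymerase II, and its subunits are the TATA-binding protein TBP and the TBP-associated factors (TAFs). The 10 subunit genes described here, Tbp, Taf1, Taf2, Taf3, Taf5, Taf7, Taf9, Taf10, Taf12 and Taf13, were found by exact symbol among 24078 entries of a table of gene counts, and each had 1 entry. The members were selected on these same counts, with Taf13 picked for its higher CPM in mutant hippocampus, so differences between genotypes in these 10 genes are given as a description, with no p-value. Calls of members in the fit over all genes are likewise description and are not used as evidence. The libraries came from dissected hippocampus of mice homozygous for a targeted allele of Wfs1 (strain Wfs1tm1Koks, 4 animals, replicates 15 to 18) and of wild-type mice under the same strain label (4 animals, replicates 7 to 10). The product of Wfs1, wolframin, sits in the membrane of the endoplasmic reticulum. No source used here gives age, sex or litter.

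Many TAFs carry a histone fold and pair with a set partner. TAF13 pairs with TAF11 and TAF9 with TAF6, TAF12 pairs with TAF4, and TAF10 pairs with TAF3 or TAF8, while TAF5 is the WD-repeat scaffold on which the pairs assemble. TAF1, TAF2 and TAF7 form the part of the complex that contacts DNA downstream of TBP. TFIID is present in most cell types, and TAF9, TAF10 and TAF12 are shared with the coactivator complex SAGA.

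The regions before the start sites are shown first for Taf13 and for 3 subunits with lower counts in homozygous libraries, since TFIID itself reads such sequence. Each is the run of 250 bases before the RefSeq start on build GRCm38.p6, 5′ to 3′ on the gene's strand: chr3:108571449-108571698, plus strand, for Taf13, chr19:47067498-47067747, plus strand, for Taf5, chr17:15499638-15499887, plus strand, for Tbp, and chr7:105744339-105744588, minus strand, for Taf10. Capitals mark matches, on either strand, to the TATA motif TATAAA, to the CCAAT box, to the GC box GGGCGG and to the ETS-type motif CCGGAAG.
Taf13: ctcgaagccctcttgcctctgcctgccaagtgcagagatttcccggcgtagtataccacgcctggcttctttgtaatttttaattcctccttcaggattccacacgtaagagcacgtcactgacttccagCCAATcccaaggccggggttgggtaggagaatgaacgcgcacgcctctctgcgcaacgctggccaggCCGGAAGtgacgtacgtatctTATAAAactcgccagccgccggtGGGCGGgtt
Taf5: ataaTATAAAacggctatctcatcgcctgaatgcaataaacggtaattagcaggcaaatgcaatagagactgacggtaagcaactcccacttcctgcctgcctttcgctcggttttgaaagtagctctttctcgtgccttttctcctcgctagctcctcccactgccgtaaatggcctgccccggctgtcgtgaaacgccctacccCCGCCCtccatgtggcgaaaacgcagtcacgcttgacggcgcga
Tbp: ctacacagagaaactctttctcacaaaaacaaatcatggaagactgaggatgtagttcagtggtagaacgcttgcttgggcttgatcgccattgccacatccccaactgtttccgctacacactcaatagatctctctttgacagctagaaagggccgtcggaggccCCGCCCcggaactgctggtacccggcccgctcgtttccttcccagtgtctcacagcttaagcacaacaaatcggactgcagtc
Taf10: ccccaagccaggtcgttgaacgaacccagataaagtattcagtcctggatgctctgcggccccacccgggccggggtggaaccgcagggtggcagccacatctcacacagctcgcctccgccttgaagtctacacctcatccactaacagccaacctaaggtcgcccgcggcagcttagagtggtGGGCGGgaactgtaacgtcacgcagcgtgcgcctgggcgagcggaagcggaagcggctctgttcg
The Taf13 window held all 4 motifs once each, and its TATAAA, read as spelled, began 32 bases before the start. TATAAA lay anywhere in 12.4% of 32851 RefSeq windows of this length and, as spelled, 25 to 35 bases before the start in 1.75%. That position range was chosen after the match in Taf13 was seen. Windows were matched for 8 members, counting 2 windows for Taf9, and Taf5 was the other member with TATAAA, 246 bases before its start. GGGCGG was found in 7 of the 8 members, CCGGAAG in 3 and CCAAT in 2, against 32.7%, 6.91% and 33.8% of all windows. A match is a description of letters and not of a bound site.

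Library totals ran from 3250949 to 5077114 counts in homozygous and from 3296309 to 6747411 counts in wild-type libraries. Wfs1 itself averaged 14.8 ± 2.61 CPM (counts scaled to a common library size, with TMM factors) in homozygous and 52.0 ± 7.49 CPM in wild-type libraries (SD, n = 4 each), with no overlap. Markers of hippocampal neurons were present in both genotypes, summing over 10 genes to 1109 to 1283 CPM in homozygous and 1604 to 2121 CPM in wild-type libraries, and 4 of the 10 were lower in the fit over all genes. Oligodendrocyte markers summed over 8 genes to 1009 to 1239 CPM against 1472 to 2349 CPM, with 6 of 8 lower, and the share of counts on the ribosomal precursor locus Rn45s was 2.29% to 3.77% against 4.99% to 6.82%. Choroid plexus markers varied widely within both genotypes, summing to 133 to 880 CPM in homozygous and 215 to 1230 CPM in wild-type libraries (1 of 8 higher, 1 lower). Striatal markers summed to 285 to 387 CPM against 284 to 410 CPM, with 3 of 8 higher and none lower. Of the thalamic and hypothalamic markers 1 of 8 was higher, of the microglial markers 2 of 8 were lower, and endothelial markers and the 4 blood markers in the table each had 2 higher and 2 lower. No marker in the table was at 0 in all libraries. The neuronal, oligodendrocyte and Rn45s differences run with genotype, and their part in the values below was not tested. In whole tissue, fewer cells of a type and less RNA per cell cannot be told apart.

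Within the group, Taf13 was far higher in homozygous hippocampus, Taf5, Tbp, Taf9 and Taf10 were lower, and Taf1, Taf2, Taf3, Taf7 and Taf12 did not pass the threshold. In the edgeR quasi-likelihood fit over 20478 genes, with a Benjamini-Hochberg adjusted p of 0.05 as the threshold, 1 of the 10 members passed as higher and 4 as lower. Of all genes tested 20.7% passed as higher and 20.4% as lower, and 41.1% in either direction, so nothing is read from the count of members. All 10 members passed the low-count filter. The members' median log2 fold change (homozygous over wild-type) was -0.20, or -0.25 without Taf13, beside 0.05 over all genes tested.

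**Figure D1:**
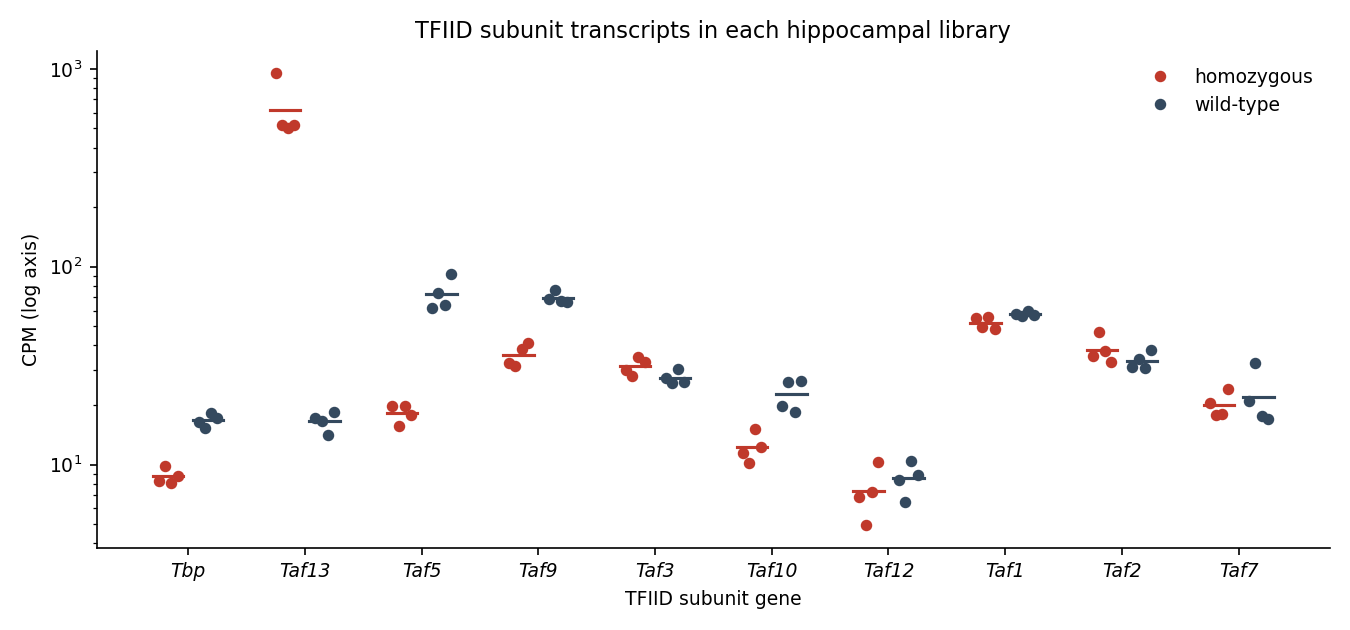
CPM of the 10 TFIID subunit genes in each library on a log axis, with homozygous libraries in red and wild-type libraries in dark blue; points are libraries and lines are means of 4. Taf13 lies at 503 CPM or more in homozygous and at 18.5 CPM or less in wild-type libraries. Taf5, Tbp, Taf9 and Taf10 lie lower in each homozygous library. So does Taf1 by a small margin, at most 55.5 CPM in homozygous against at least 56.6 CPM in wild-type libraries.

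Taf13 encodes one of the smallest TAFs, and the gene spans 108571698 to 108583222 on the plus strand of chromosome 3 (mm10). It was counted at 948, 522, 503 and 517 CPM in homozygous replicates 15, 16, 17 and 18, against 17.1, 16.6, 14.1 and 18.5 CPM in wild-type replicates 7, 8, 9 and 10. The genotypes did not overlap, and homozygous replicate 15 stood well above the other 3 homozygous libraries, which were close to each other. The raw counts behind these values were 5369, 1797, 1739 and 1762 against 80, 49, 88 and 88. The mean was 623 ± 217 CPM in homozygous and 16.6 ± 1.84 CPM in wild-type libraries (SD, n = 4 each), a ratio of 37.5 and a log2 fold change of 5.23 (SE 0.26). Without homozygous replicate 15 the log2 fold change was 4.96. By log2 fold change Taf13 ranked 14 from the top of the 20478 genes tested.

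Tbp encodes the subunit that binds and bends TATA-containing DNA, and TAF11 with TAF13 sits beside it. Tbp was counted at 8.30, 9.87, 8.10 and 8.81 CPM in homozygous replicates 15 to 18, against 16.5, 15.3, 18.1 and 17.25 CPM in wild-type replicates 7 to 10. Each homozygous value was below each wild-type value, and the log2 fold change was -0.95 (SE 0.15). Tbp shares 1120 bases, 8.6% of its exon sequence, with Pdcd2, a programmed cell death gene on the opposite strand. No source used here gives the strand setting of the counting. Pdcd2 averaged 7.35 ± 1.25 CPM in homozygous and 18.6 ± 4.22 CPM in wild-type libraries (SD, n = 4 each; log2 fold change -1.36, adjusted p 0.000669 in edgeR). Without strand, reads of Tbp and Pdcd2 cannot be told apart where they overlap.

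Taf11, the pairing partner of Taf13, did not follow it. Taf11 was at 10.2, 9.29, 9.54 and 9.39 CPM in homozygous replicates 15 to 18 and at 12.4, 14.9, 12.2 and 13.04 CPM in wild-type replicates 7 to 10. All 4 homozygous values were lower, with a log2 fold change of -0.43 (SE 0.15, adjusted p 0.0385 in edgeR). That call did not hold when any 1 of the 8 libraries was left out (log2 fold change -0.39 to -0.47, adjusted p 0.0574 to 0.0676 in edgeR), in DESeq2 (adjusted p 0.0789) or limma-voom (adjusted p 0.0548), or with library totals as the scaling (-0.23, adjusted p 0.245). The ratio of Taf13 to Taf11 in CPM per kilobase of transcript was 44.96 ± 13.3 in homozygous and 0.889 ± 0.108 in wild-type libraries (SD, n = 4 each).

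Taf5, the scaffold subunit, was the member with the lowest log2 fold change. It was at 19.8, 15.7, 19.7 and 17.9 CPM in homozygous replicates 15 to 18, against 61.7, 73.6, 64.0 and 92.4 CPM in wild-type replicates 7 to 10. The groups lay far apart, with wild-type replicate 10 the highest, and the means were 18.3 ± 1.92 and 72.9 ± 13.9 CPM (SD, n = 4 each), giving a log2 fold change of -1.99 with an SE of 0.16. The 3′ ends of Taf5 and of Usmg5, which encodes a small subunit of the mitochondrial ATP synthase on the opposite strand, share 16 bases of exon. Usmg5 averaged 15.7 ± 3.78 CPM in homozygous and 39.25 ± 9.91 CPM in wild-type libraries (SD, n = 4 each; log2 fold change -1.31, adjusted p 0.000983 in edgeR).

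Among the histone-fold subunits, Taf9 and Taf10 were lower and Taf3 and Taf12 did not pass. Taf9 was at 32.5, 31.65, 38.5 and 41.1 CPM in homozygous replicates 15 to 18 and at 68.6, 76.0, 67.2 and 66.1 CPM in wild-type replicates 7 to 10, a log2 fold change of -0.95 (SE 0.12) with no overlap. Taf9 shares 1119 bases, 56.5% of its exon sequence, with Ak6, an adenylate kinase gene on the same strand that has no entry of its own in the table, so counts under Taf9 can include Ak6. Taf10 was at 11.5, 10.2, 15.04 and 12.3 CPM in homozygous and at 19.7, 26.1, 18.45 and 26.5 CPM in wild-type libraries in the same order (log2 fold change -0.88, SE 0.18), again with no overlap. On the opposite strand Ilk, an integrin-linked kinase gene, shares 1533 bases of exon with Taf10 and averaged 47.3 ± 15.8 CPM in homozygous and 43.7 ± 2.07 CPM in wild-type libraries (SD, n = 4 each; log2 fold change 0.11, adjusted p 0.671 in edgeR). These bases are 35.8% of the Taf10 exon sequence, and without strand the counts under Taf10 can include reads of Ilk.

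Taf3, whose PHD finger binds trimethylated histone H3, was at 27.9 to 35.0 CPM in homozygous and 25.8 to 30.5 CPM in wild-type libraries (log2 fold change 0.19, SE 0.13). Taf12 had the lowest counts of the group, 17 to 39 in homozygous and 19 to 65 in wild-type libraries, and means of 7.33 ± 2.21 and 8.52 ± 1.64 CPM (SD, n = 4 each), giving a log2 fold change of -0.25 with an SE of 0.23. For both genes the genotypes overlapped.

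None of the 3 genes of the part that contacts DNA downstream of TBP passed the threshold. Taf1, the largest subunit, was at 54.8, 49.4, 55.5 and 48.4 CPM in homozygous replicates 15 to 18 and at 57.4, 56.6, 59.7 and 57.0 CPM in wild-type replicates 7 to 10. The values did not overlap, yet the log2 fold change was only -0.15 (SE 0.11) and did not pass. Of the 10 members 1 had all homozygous values higher, 5 had all lower and 4 overlapped, where 18.8% of all genes tested were apart in each direction and 37.6% in either. Taf2, an aminopeptidase-like subunit, was at 32.9 to 46.8 CPM in homozygous and 30.6 to 37.9 CPM in wild-type libraries (log2 fold change 0.19, SE 0.14). Taf7, which restrains the enzymatic activity of TAF1, was at 17.7 to 24.1 CPM in homozygous and 17.04 to 32.55 CPM in wild-type libraries (log2 fold change -0.11, SE 0.21), and wild-type replicate 8 was the highest of the 8.

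The other 3 subunit genes of the complex overlapped between genotypes and did not pass. Taf4a, partner of TAF12, averaged 32.7 ± 10.2 CPM in homozygous and 27.5 ± 9.97 CPM in wild-type libraries (SD, n = 4 each; log2 fold change 0.27, adjusted p 0.413 in edgeR). Taf6, partner of TAF9, averaged 53.5 ± 33.3 and 44.6 ± 8.09 CPM in the same order (log2 fold change 0.27, adjusted p 0.541), and homozygous replicate 16 alone reached 101 CPM. Without that library the Taf6 log2 fold change was -0.23. Taf6 shares 38.2% of its exon sequence with Ap4m1 on the opposite strand, where counts cannot be told apart without strand. Taf8, partner of TAF10, averaged 15.4 ± 2.36 and 17.5 ± 3.83 CPM (log2 fold change -0.19, adjusted p 0.433).

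**Figure D2:**
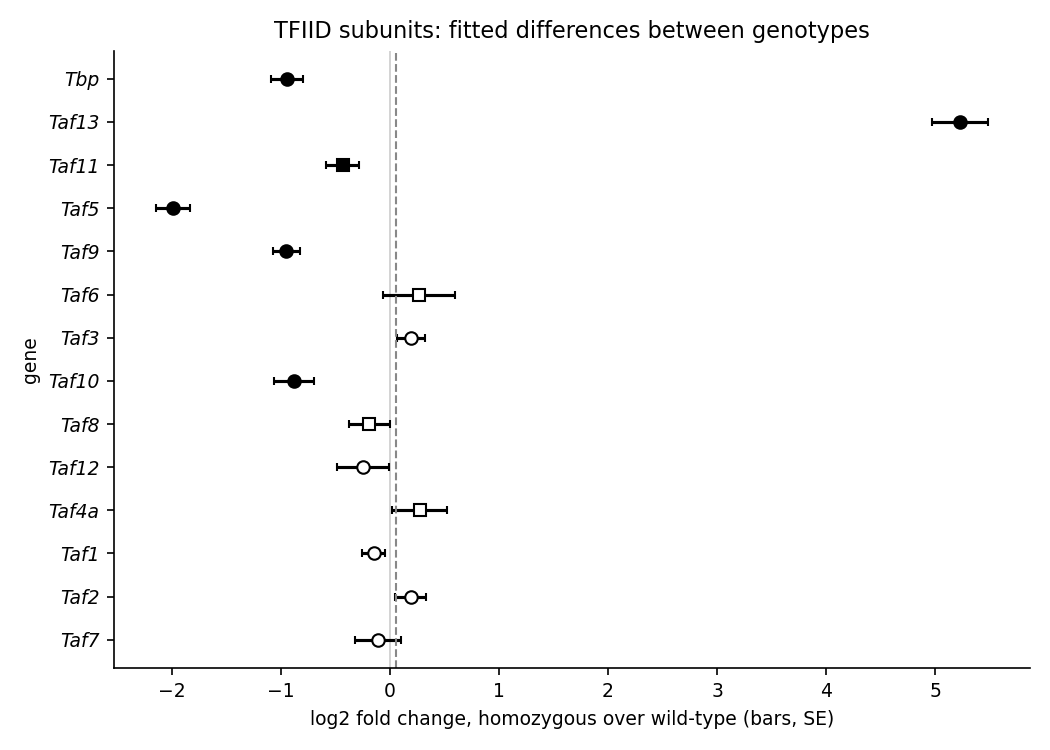
Fitted log2 fold changes (homozygous over wild-type) of 14 TFIID subunit genes with SE bars; circles are the 10 described genes, squares Taf4a, Taf6, Taf8 and Taf11, filled symbols passed an adjusted p of 0.05 and the dashed line is the median of all genes tested, 0.05. Taf13 stands at 5.23, while the other 13 lie between -1.99 and 0.27.

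Taf13 held a different place among the subunits in each genotype. Levels of different genes were compared as CPM per kilobase, using the median length of GENCODE transcripts with a CCDS tag. In homozygous libraries Taf13 came first at 255 CPM per kilobase, followed by Taf9 at 22.5, Taf1 at 8.74, Taf2 at 7.58, Taf3 at 6.58, Taf7 at 6.07, Taf5 at 5.60, Tbp at 4.24, Taf10 at 2.86 and Taf12 at 1.94. From Taf1 down to Taf5 the neighbours in the homozygous order differed by less than the larger of their SDs. In wild-type libraries the order was Taf9 at 43.5, Taf5 at 22.4, Taf1 at 9.69, Tbp at 8.12, Taf13 at 6.79, Taf7 at 6.68, Taf2 at 6.65, Taf3 at 5.73, Taf10 at 5.30 and Taf12 at 2.25 CPM per kilobase. Among Taf13, Taf7 and Taf2, and between Taf3 and Taf10, neighbouring means differed by less than their SD over libraries. The places rest on the transcript models used, such as a 4.28 kb model for Taf10, since no source used here names the annotation of the counting.

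Taf13 made up 85.9%, 77.5%, 74.9% and 75.2% of the summed CPM per kilobase of the 10 genes in homozygous replicates 15 to 18, and 6.29%, 5.50%, 5.20% and 6.22% in wild-type replicates 7 to 10. The sum over the other 9 genes was 66.1 ± 3.97 CPM per kilobase in homozygous and 110 ± 6.22 in wild-type libraries (SD, n = 4 each). The log2 CPM of Taf13 minus the median log2 CPM of the other 9 was 4.85 ± 0.47 in homozygous and -0.80 ± 0.26 in wild-type libraries (SD, n = 4 each), a difference of 5.65. Both quantities rest on values that singled out Taf13 and have no test.

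**Figure D3:**
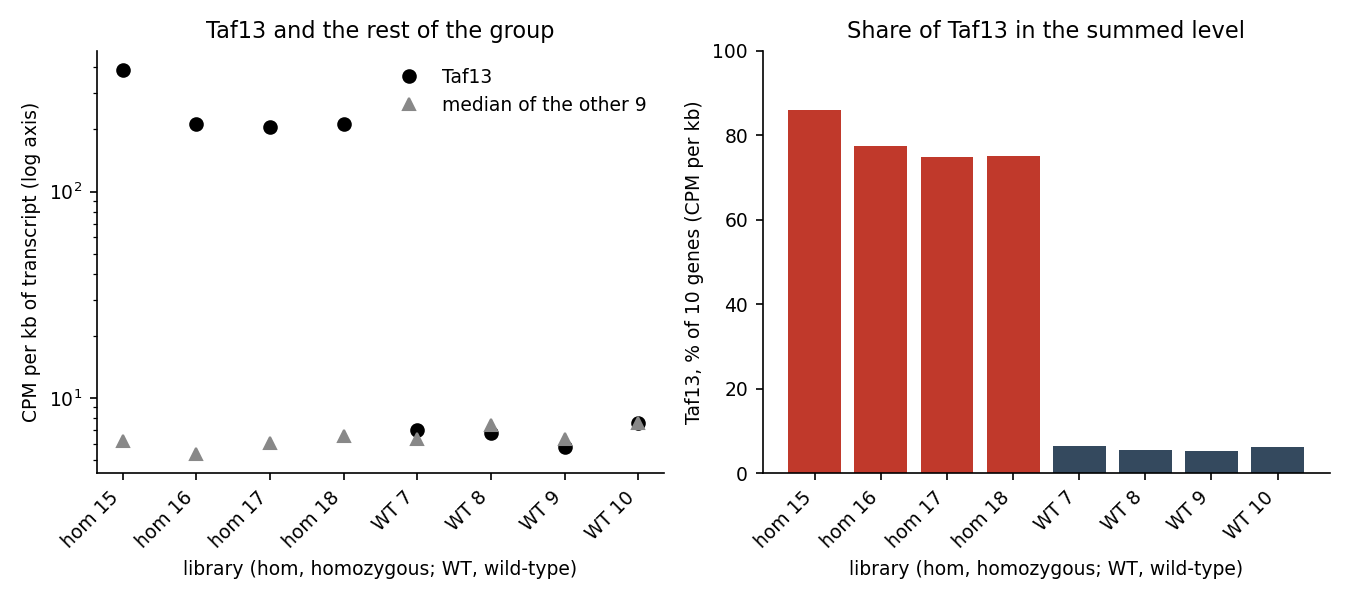
Left, CPM per kilobase of Taf13 (circles) and the median of the other 9 genes (triangles) in each library, log axis; right, Taf13 as a percentage of the summed CPM per kilobase of the 10 genes. Taf13 stands at 206 to 388 CPM per kilobase in homozygous libraries and at 5.78 to 7.58 in wild-type libraries, where it lies beside the median of the others.

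Most members lay low on this scale. As a gauge, genes of families with restricted expression were used (keratins, taste receptors, cytochrome P450 family 2 and Mrgpr receptors). The 147 that passed the low-count filter had, from the 10th to the 90th percentile, 2.43 to 9.89 CPM per kilobase in homozygous and 1.76 to 8.52 in wild-type libraries. Family genes that did not pass the filter were left out, so the range is not that of the whole families. These families were taken up with earlier results of these data known. In homozygous libraries 7 of the 10 members lay within that range, with Taf13 and Taf9 above it and Taf12 below it. In wild-type libraries 7 lay within it, with Taf9, Taf5 and Taf1 above. Taf13 was thus far above the range in homozygous libraries and within it in wild-type libraries, and Taf5 was within it in homozygous and above it in wild-type libraries.

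**Figure D4:**
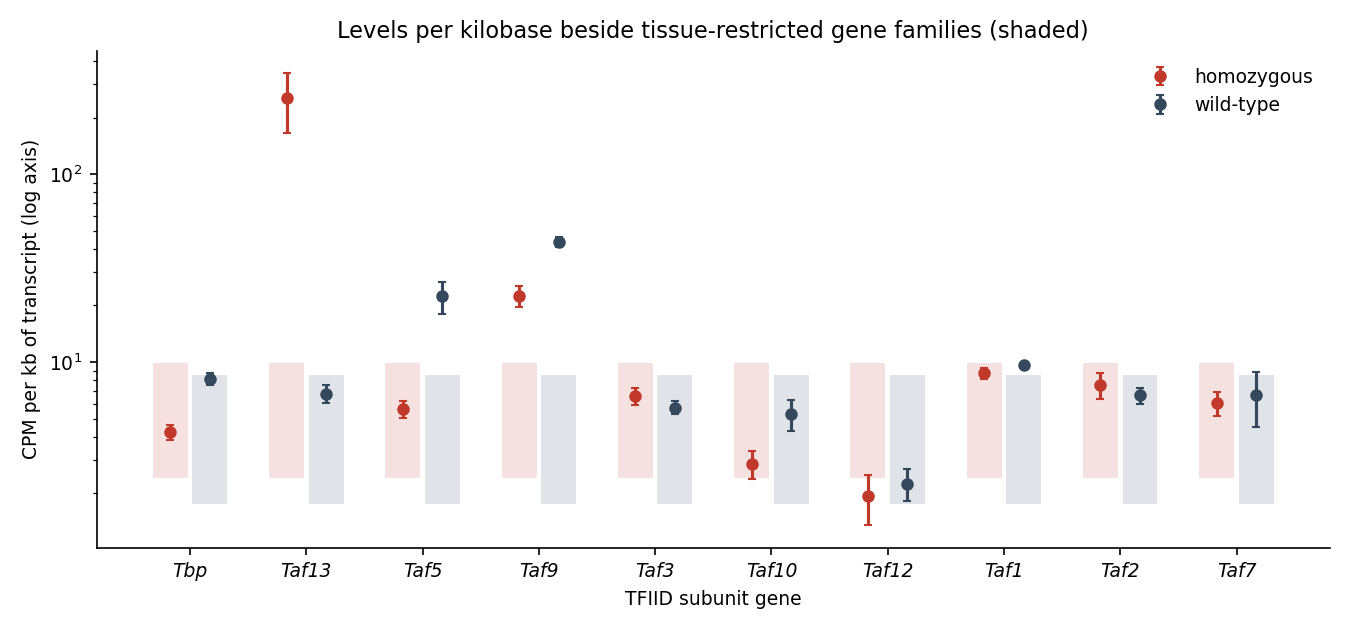
CPM per kilobase of the 10 genes, mean and SD of 4 libraries per genotype on a log axis. Shaded boxes are the 10th to 90th percentile, in the same genotype, of 147 genes of restricted families that passed the low-count filter. Taf13 in homozygous libraries, at 255, and Taf9 in both genotypes, at 22.5 and 43.5, lie above the boxes, as do Taf5 and Taf1 in wild-type libraries.

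None of the 3 tested neighbours of Taf13 on chromosome 3 passed as higher. Tmem167b, which encodes a small membrane protein and lies 9232 bases away at lower coordinates, averaged 32.8 ± 3.23 CPM in homozygous and 31.3 ± 5.53 CPM in wild-type libraries (SD, n = 4 each; log2 fold change 0.064, adjusted p 0.749 in edgeR). Wdr47, a microtubule-associated WD-repeat gene 8057 bases away on the other side, averaged 110 ± 12.9 and 154 ± 17.6 CPM in the same order (log2 fold change -0.49, adjusted p 0.0147). That call ended with library totals as the scaling (-0.29), after removing the abundance trend (-0.22) and after removing the trend on counts per kilobase (-0.19). Clcc1, a chloride channel gene of the endoplasmic reticulum, averaged 31.7 ± 1.49 and 31.3 ± 2.53 CPM (log2 fold change 0.022, adjusted p 0.894). The small RNA gene Scarna2 did not pass the low-count filter.

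By Pearson correlation of log2 CPM over the 8 libraries, the 5 genes most like Taf13 among 20477 searched were Calcr (0.996), Prdm2 (0.995), 4933411G06Rik (0.995), Gpr111 (0.995) and 2410076I21Rik (0.995). The 8 points fall into 2 clusters, 1 per genotype. Calcr, the calcitonin receptor gene, averaged 36.1 ± 1.03 CPM in homozygous and 11.1 ± 0.55 CPM in wild-type libraries, and Gpr111, an adhesion receptor gene, 201 ± 112 and 7.60 ± 0.91 CPM (SD, n = 4 each). All 5 genes were, like Taf13, highest in homozygous replicate 15, where Gpr111 reached 366 CPM, against 117 to 160 CPM in the other homozygous libraries, and Calcr 37.45 CPM, against 35.0 to 36.1 CPM. Prdm2 differed little, at 157.9 CPM against 154.7 to 156.4 CPM. The 5 genes were picked by correlation with Taf13 over these same libraries, so a shared highest library is no independent finding.

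Other genes of the transcription machinery were looked at as 7 lists holding 101 genes of the table, not all of them for RNA polymerase II. Each count below stands beside the 20.7% of all genes tested that passed as higher and the 20.4% that passed as lower. Of the 4 TFIID subunits outside the group, Taf11 was called lower and the other 3 did not pass. Among 8 paralogs of TFIID subunits 2 rose and none fell. Taf4b, the gonad-enriched paralog of TAF4, averaged 31.4 ± 4.78 CPM in homozygous and 19.4 ± 2.10 CPM in wild-type libraries (SD, n = 4 each; log2 fold change 0.70, adjusted p 0.00408 in edgeR). Tbpl2, a TBP-like gene of oocytes, rose with 0.64 (adjusted p 0.0432), a call that ended after removing the abundance trend and without wild-type replicate 7, 9 or 10 or homozygous replicate 17 or 18 (0.44 to 0.69). The list medians were 0.037 for those 4 subunits and 0.035 for the paralogs, beside 0.052 over all genes tested.

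Of 10 TBP partners outside TFIID, 4 fell and 1 rose, with a median of -0.29, against 2 lower and 1 higher, with a median of -0.086, when library totals were used. Brf1 and Brf2, which recruit RNA polymerase III with TBP, fell with log2 fold changes of -0.67 (adjusted p 0.00149 in edgeR) and -1.05 (adjusted p 0.00298). Drap1, the corepressor that joins TBP on DNA, fell with -0.62 (adjusted p 0.0109), but not with library totals (-0.42) or after removing the trend on counts per kilobase (-0.22). Of 17 measured SAGA genes 4 fell and 3 rose, with a median of -0.0029, close to the shares over all genes tested, and with library totals 2 were lower and 5 higher, with a median of 0.20. The deubiquitinase gene Usp22 averaged 99.6 ± 16.95 CPM in homozygous and 215 ± 30.6 CPM in wild-type libraries (SD, n = 4 each; -1.11, adjusted p 0.000522 in edgeR), Sf3b5 fell with -1.38 (adjusted p 0.00181), and Supt7l, which encodes a histone-fold partner of TAF10 in SAGA, rose with 0.52 (adjusted p 0.00861).

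Of 17 genes of TFIIA, TFIIB, TFIIE, TFIIF and TFIIH, 3 fell, 1 rose and 13 did not pass, with a median of -0.14, but with library totals none were lower and 3 higher, with a median of 0.066. Gtf2h5 of TFIIH fell with -0.55 (adjusted p 0.00708 in edgeR), though not with library totals (-0.35) or after removing the trend on counts per kilobase (-0.34). Gtf2e1 rose with 0.33 (adjusted p 0.0287) and Gtf2b fell with -0.63 (adjusted p 0.0294), and neither call was stable. Gtf2e1 did not pass in DESeq2 or without wild-type replicate 7, 9 or 10 or homozygous replicate 17 or 18 (0.29 to 0.34). Gtf2b did not pass with library totals (-0.43) or without wild-type replicate 7, 9 or 10 or homozygous replicate 15 or 17 (-0.66 to -0.50). Of 12 RNA polymerase II subunit genes 7 fell and none rose, with a median of -0.59. With library totals 2 of the 12 were lower and 1 higher, with a median of -0.39, and leaving out 1 library left 4 to 6 lower, with 4 without wild-type replicate 7 or 9 or homozygous replicate 15. Among the 7 were Polr2e (-0.92, adjusted p 0.00107 in edgeR), Polr2h (-0.74, adjusted p 0.00915) and Polr2f (-0.70, adjusted p 0.0167). Polr2f did not pass without homozygous replicate 15 (-0.64) or with library totals (-0.51). Of 33 Mediator genes 8 fell, close to the share over all genes tested, and 3 rose, with a median of -0.24. With library totals 5 were lower and 5 higher, with a median of -0.032. Among the 3 that rose with TMM scaling was Med15, named after its values were seen. Med15 was at 453 CPM in homozygous replicate 16, against 21.4 to 29.8 CPM in the other homozygous and 14.7 to 22.3 CPM in wild-type libraries. Its log2 fold change was 2.87, against 0.50 without that library, and the genotypes overlapped. Med25 averaged 34.3 ± 3.07 CPM in homozygous and 82.7 ± 6.68 CPM in wild-type libraries (SD, n = 4 each; -1.27, adjusted p 3.80e-05 in edgeR), Med10 rose with 2.16 (adjusted p 0.000371) and Med17 fell with -0.69 (adjusted p 0.00355).

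**Figure D5:**
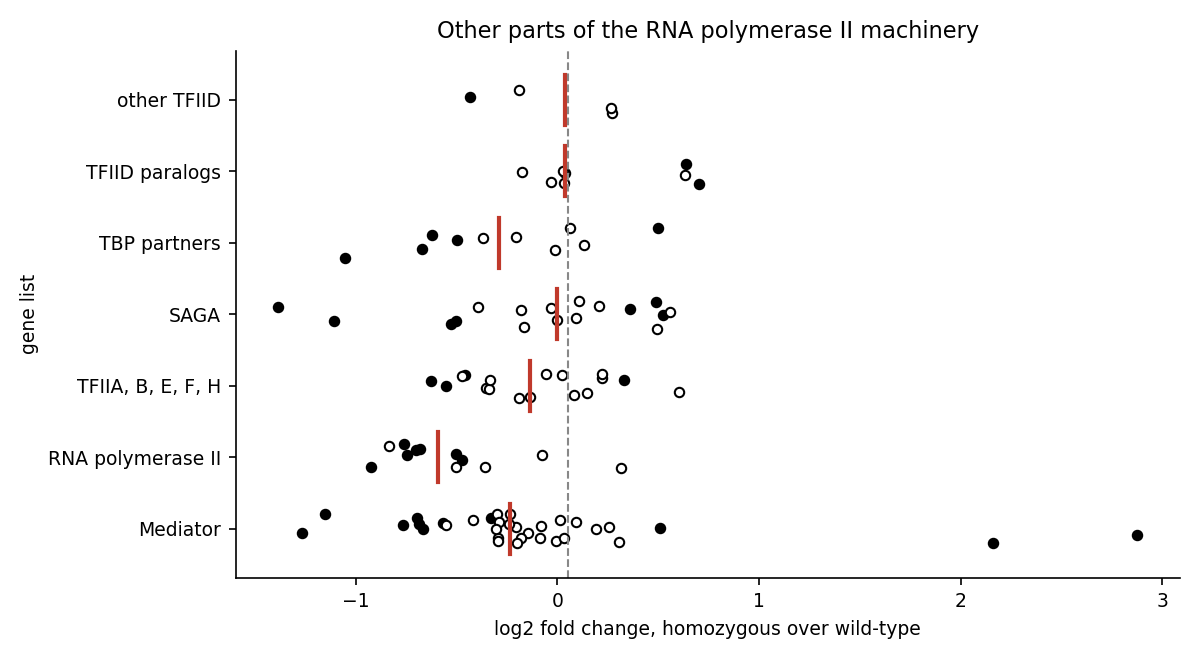
Log2 fold changes (homozygous over wild-type) of the genes of 7 lists of the transcription machinery; each point is a gene, filled where it passed an adjusted p of 0.05, red bars are list medians and the dashed line is the median of all genes tested, 0.05. The RNA polymerase II list has its median at -0.59, and no gene in the lists reaches the 5.23 of Taf13.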

How the data were processed

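Hippocampal RNA, depleted of rRNA, was read on the SOLiD 4 platform (forward 50, reverse 35 bases), per the labels' protocols. Raw counts by gene symbol were deposited by the authors in 1 table, on build mm10 per the submitters' processing notes. No source used here gives the aligner, counter, strand setting or annotation. Replicates of 1 genotype differed by more than sampling noise (chi-square per degree of freedom of at least 5.13 in each pair). After filterByExpr of edgeR 4.0.16 (R 4.3.3), which kept 20478 of 24078 entries, homozygous and wild-type libraries were compared with TMM scaling and no covariate by the two-sided quasi-likelihood test of edgeR, with Benjamini-Hochberg adjustment over all genes tested. SE was taken from the F statistic, and errors of CPM are SD over libraries. The code was tested on simulated counts. Positions, lengths and exon overlaps came from GENCODE M21 on the same build, with 97.7% of entries matched, and start-site windows from RefSeq.

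The members and the gene lists were chosen with earlier results of these data known. Named outside the members are the remaining TFIID subunits, up to 3 genes per list with the smallest p among those past the threshold, genes overlapping a member, the 2 nearest genes on each side of Taf13 and the 5 genes most correlated with it. Alternatives were DESeq2-type size factors, plain library totals, no filter on low counts, at least 1 CPM in 4 libraries, DESeq2 1.42.0, limma-voom (limma 3.58.1) with quality weights, removal of a loess trend (span 0.3) on abundance or on counts per kilobase, and leaving out each library in turn. The p-values set the difference between genotypes against the spread among animals of the same genotype. They do not cover a litter or batch difference that runs with genotype. Summaries used pandas 2.3.3 and plots matplotlib 3.10.9.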

Additional observations from a re-analysis of the deposited data

Results flagged for a closer look

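Each value below is the highest or lowest of 4 libraries and lies farther from the other 3 than Dixon's 95% limit allows. Chance flags about 1 in 20 groups, and 5 of 86 groups of 4, from 43 named genes, held such a value. Med15, named after its values were seen, was not among the 43 and is not in that count. Med15 was at 453 CPM in homozygous replicate 16, against 21.4 to 29.8 CPM in the other homozygous libraries. Taf13 was 948 CPM in homozygous replicate 15, against 503 to 522 CPM in the other homozygous libraries. In homozygous replicate 17 Taf4a was 48.0 CPM against 27.0 to 28.4 CPM, Brf2 8.385 CPM against 5.48 to 5.81 CPM and Drap1 49.4 CPM against 32.5 to 35.2 CPM. Usp22 was 74.3 CPM in homozygous replicate 18, against 107 to 110 CPM in the other homozygous libraries.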

How the results depend on the processing

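No paired analysis was made because no source used here pairs homozygous animals (15 to 18) with wild-type animals (7 to 10). Over the 16 alternatives, Taf13, Taf5, Tbp, Taf9 and Taf10 kept their direction and their side of the threshold in each, with log2 fold changes of 4.96 to 5.61, -2.06 to -1.79, -1.16 to -0.74, -1.03 to -0.66 and -1.13 to -0.68. The members were selected on these same counts, so their steadiness is a description and no support for the differences. With library totals the median of all genes was 0.25 instead of 0.05, 6645 genes were higher and 2412 lower instead of 4241 and 4168, and 3 members instead of 1 were higher, since Taf2 (0.39) and Taf3 (0.39) were then counted as higher. In that setting 18 genes of the other lists were higher and 11 lower instead of 10 and 27, Taf1 was 0.054, Taf7 0.097 and Taf8 0.013. Leaving out 1 library gave 5 to 11 higher genes of those lists, with 5 without wild-type replicate 7, 9 or 10, and 18 to 26 lower. Removing the trend on counts per kilobase gave -0.010 for Taf3, and 6.18 instead of 5.65 for the gap between Taf13 and the other 9, against 5.43 to 5.80 when 1 library was left out. Taf7 was 0.031 in limma-voom. Leaving out 1 library gave -0.22 to 0.096 for Taf7, with the positive value without wild-type replicate 8, -0.23 to 0.47 for Taf6, with the negative value without homozygous replicate 16, and -0.13 to 0.25 for Ilk, negative without homozygous replicate 17. It also gave -0.043 to 0.17 for Tmem167b, negative without wild-type replicate 10, and -0.030 to 0.042 for Clcc1, negative without wild-type replicate 7 (-0.030) or homozygous replicate 16 (-0.013). The cause of these changes was not tested. Among the TFIID subunit genes Tbp, Taf7, Taf8, Taf10, Taf11 and Taf12 had at most 126 counts in any library.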
